A study of Mus musculus with 38 samples.

Results

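The genes described here are the 37 carried by the mouse mitochondrial genome, chosen by a gene name that starts with mt-, out of 49585 genes in each deposited expression table. They comprise 13 protein genes, 2 ribosomal RNA genes and 22 transfer RNA genes, of which 28 lie on the plus strand and 9 on the minus strand of the mitochondrial DNA. The protein genes are read apart from the rRNA and tRNA genes throughout. Gene expression was measured by sequencing of total RNA in 38 libraries, each labelled as a biological replicate, from mouse back skin in which the splicing factor gene Srsf2 had been deleted or mutated. Whole skin labelled SRSF2 KO carried the knockout allele and a Krt14CreER transgene, which makes Cre recombinase in basal keratinocytes, and was collected at 4, 10 and 12 days (n = 3 each). Its controls (n = 3, taken at 10 or 12 days) were Cre negative. The tdTomato reporter genotype, which marks cells with Cre activity, varied within this set. Whole skin labelled P95H carried an SRSF2 MUT allele with Cre at 12 days (n = 2) and 28 days (n = 4), against Cre negative skin at 12 days (n = 5) and 28 days (n = 3), all without the reporter. The mice of both skin sets, controls included, received topical 4-hydroxy tamoxifen on alternate days. Reporter-positive cells had also been sorted from knockout and control back skin at 10 days of 4-hydroxy tamoxifen (n = 3 each). A second sorted set held SRSF2-P95H-het and control cells (n = 3 each) from animals given tamoxifen by injection and the skin carcinogens DMBA and TPA, at 20 weeks. The Cre status of the sorted controls and the ages and sexes of the animals are not given in the labels.

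The mitochondrial genome is transcribed from both strands by the polymerase Polrmt as long precursors. The rRNAs and most mRNAs are released by cutting out the tRNAs that stand between them, by RNase P at one end and Elac2 at the other. The mRNAs encode core subunits of respiratory complexes I (the Nd genes), III (Cytb), IV (the Co genes) and V (the Atp genes), while complex II and all other subunits are encoded in the nucleus. Skeletal muscle and brown fat are rich in mitochondria, and back skin includes a thin muscle layer as well as epidermis, hair follicles, dermis and fat.

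Parts of the mitochondrial genome also exist as old insertions in nuclear chromosomes, and annotated copies on nuclear chromosome 1 match 5 of the 13 protein genes nearly base for base. mt-Atp8 lies between these genes, and the 6 are called the copied stretch below. Short reads from such a gene can fit both places, so the sequences below show how far a gene and its copy can be told apart. The annotation was GENCODE M21 on GRCm38, and each sequence is written in the direction of its transcript. The first stretch belongs to mt-Co2, a copied gene (chrM:7553-7642, plus strand). The second is the same stretch of its chromosome 1 copy Gm28661 (chr1:24614936-24615025, minus strand), which differs at 0 of these bases, and the third is the older chromosome 2 copy Gm13341 (chr2:22587345-22587434, minus strand), where the 3 capitals mark bases that differ from mt-Co2.
mt-Co2: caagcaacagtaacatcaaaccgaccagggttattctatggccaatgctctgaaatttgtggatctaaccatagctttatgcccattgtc
Gm28661: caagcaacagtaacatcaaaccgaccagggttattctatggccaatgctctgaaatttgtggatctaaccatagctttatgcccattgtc
Gm13341: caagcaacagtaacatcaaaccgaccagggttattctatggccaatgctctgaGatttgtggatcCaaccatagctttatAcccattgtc
For contrast, mt-Cytb (chrM:14445-14534, plus strand) lies outside the copied stretch, and an annotated copy of it, Gm11410 (chr4:80004289-80004378, plus strand), differs at the 8 bases in capitals.
mt-Cytb: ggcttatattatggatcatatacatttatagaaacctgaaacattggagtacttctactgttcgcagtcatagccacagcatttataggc
Gm11410: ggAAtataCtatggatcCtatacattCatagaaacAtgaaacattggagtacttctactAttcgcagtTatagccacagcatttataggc

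Neighbouring mitochondrial genes can also share bases. The end of mt-Atp8 (chrM:7880-7969, plus strand) is shown because its last 43 bases, in capitals, are at once the start of mt-Atp6.
mt-Atp8: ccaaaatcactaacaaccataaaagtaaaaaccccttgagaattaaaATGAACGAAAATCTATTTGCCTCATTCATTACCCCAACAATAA
The 3 tRNA genes below are the ones that reached a mean of 10 in each of the 4 tables, and capitals mark the anticodon of mt-Tm for methionine (chrM:3845-3913, plus strand), mt-Tw for tryptophan (chrM:4950-5016, plus strand) and mt-Tp for proline (chrM:15356-15422, minus strand).
mt-Tm: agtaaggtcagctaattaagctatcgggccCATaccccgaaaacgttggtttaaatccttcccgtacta
mt-Tw: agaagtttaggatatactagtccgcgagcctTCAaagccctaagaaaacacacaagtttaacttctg
mt-Tp: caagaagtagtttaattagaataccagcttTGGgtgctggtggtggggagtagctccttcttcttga
mt-Tw starts inside the last bases of mt-Nd2, which ends at base 4951, and mt-Nd6 on the minus strand overlaps the end of mt-Nd5 between bases 13552 and 13565. Both kits named in the labels keep strand, but no source at hand says whether the counting used it, so reads in such overlaps cannot be told apart.

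Levels are given in the unit of each table. The whole-skin values were all whole multiples of 1 value per library and are given here as those multiples, called steps. Undetected genes were taken to stand at 1 step, though up to 40 genes per library stood at 0. The sorted tables hold the authors' normalised counts. Estimated depth was 24.97 to 36.8 M reads per library in the knockout skin set, 7.39 to 32.3 M in P95H skin, 45.9 to 92.8 M in sorted knockout cells and controls, and 10.98 to 17.2 M in the second sorted set. In skin it was taken as the summed steps divided by the deposited value of 1 step, a relation that was not tested. Marker genes matched the tissue labels: basal keratinocyte genes held 1.65 to 2.61% of all summed values in sorted cells and 0.461 to 1.05% in whole skin, and fibroblast genes 0.000341 to 0.00123% in sorted cells against 0.510 to 9.64% in skin. Srsf2 itself stood at 3659, 3359 and 1900 normalised counts in sorted KO cells, against 17560, 18190 and 20595 in sorted controls (log2 difference -2.71, limma adjusted p = 0.043). In whole skin it did not separate the labels: it measured 2996, 3084 and 3687 steps in skin labelled KO 10 d, against 2885, 2879 and 2996 in controls (0.15, limma adjusted p = 0.29), so the whole-skin knockout labels are not checked by it. One sorted KO library, replicate 2, stands apart, with 61.3% of its summed values on loci that overlap rRNA repeats against 10.3 to 12.1% in the other libraries of its set. Results that rest on it are given with and without it, or with its own values.

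Within the mitochondrial genome, the mean RNA level per kilobase was taken for the protein and rRNA genes. It was lower for each of the 6 protein genes of the copied stretch than for any protein or rRNA gene outside it. The margin was wide in skin and the sorted knockout set and narrow at the boundary in the second sorted set. Relative to mt-Co1, which encodes the catalytic subunit of complex IV and is set to 100%, mt-Cytb of complex III reached 25.2% per kb in knockout-set skin, 24.8% in P95H-set skin, 30.3% in the sorted knockout set and 23.4% in the second sorted set. mt-Nd1, a complex I subunit, reached 27.2%, 19.8%, 32.4% and 25% in the same order of tables. mt-Nd6, also of complex I, is the sole protein gene on the minus strand. It stood lowest of the protein genes outside the copied stretch in 3 of the tables, at 1.55% in knockout-set skin, 5.44% in P95H-set skin and 4.69% in the second sorted set. In the sorted knockout set mt-Nd5 had the lowest mean at 7.64%, while mt-Nd6 averaged 9.86% with a range of 2.19 to 44.5%. KO replicate 2 gave that highest value, and also the highest for mt-Cytb (44.3%) and mt-Nd1 (49.1%), so these means rest on it in part. By contrast, the 6 genes of the copied stretch (mt-Co2, mt-Atp8, mt-Atp6, mt-Co3, mt-Nd3 and mt-Nd4l) lay between 0.0146 and 0.140% of mt-Co1 per kb in knockout-set skin and between 0.0407 and 0.563% in P95H-set skin. They reached 0.109 to 0.991% in the sorted knockout set and 0.685 to 4.43% in the second sorted set. mt-Co2, mt-Co3 and mt-Atp6 lie between mt-Co1 and mt-Nd4 on the same strand.

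**Figure D1:**
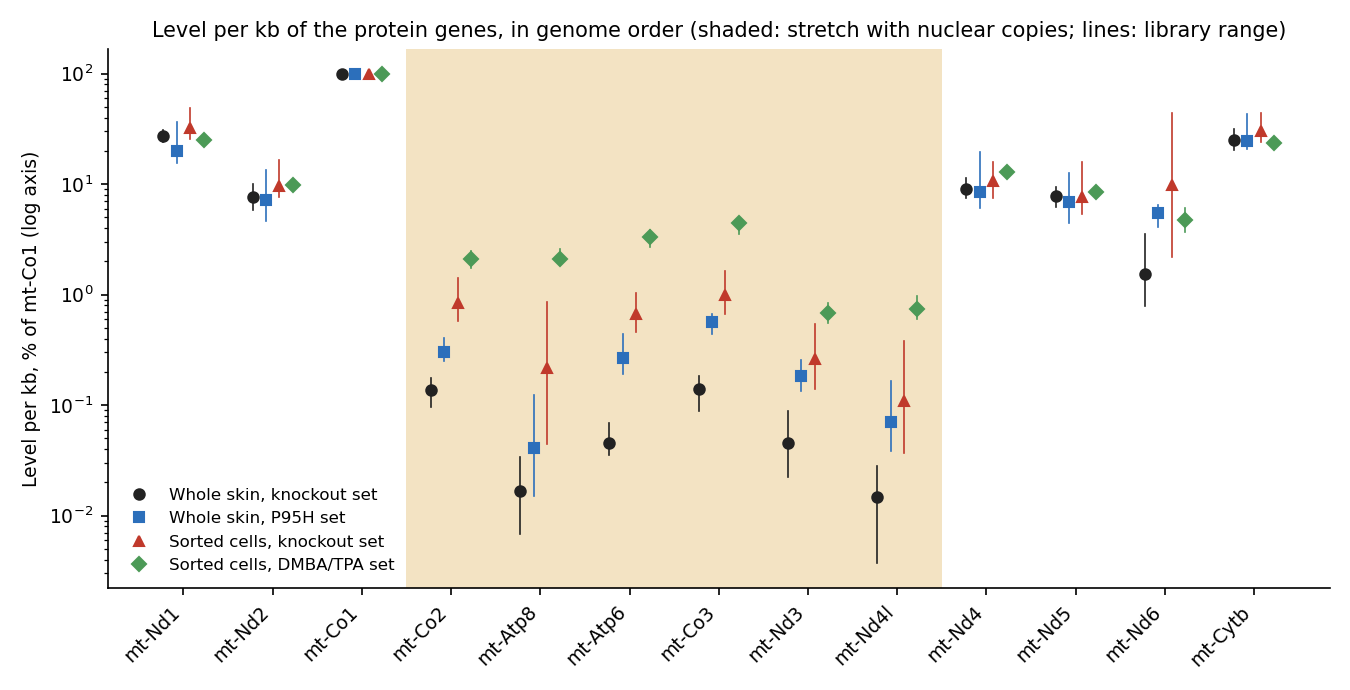
Level per kilobase of each mitochondrial protein gene in genome order, as a percentage of mt-Co1 on a log axis. Symbols give the mean over all libraries of a table and lines the range over its libraries; the shaded genes, in the stretch copied on nuclear chromosome 1, lie between 0.0146 and 4.43% of mt-Co1, with means below every gene outside it in the same table.

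The copies themselves had values of the same order as the copied genes. Median levels in knockout-set skin were 85.5 steps for Gm28661, whose 681 aligned bases are identical to mt-Co2, and 110.5 steps for Gm28437, with 783 bases identical to mt-Co3. Gm10925 (678 bases identical to mt-Atp6) had 38 steps and Gm28438 (345 aligned bases at 99.7% identity with mt-Nd3) had 6. All of these lie on the minus strand of chromosome 1 between 24611535 and 24616197. Gm11410, the diverged copy of mt-Cytb on chromosome 4, had a median of 1 step, the value of an undetected gene. mt-Nd4 is copied exactly over its first 876 of 1378 bases (Gm28439) and mt-Co1 over 483 bases at 99.8% identity (Gm29216), yet both stayed at high levels. How the counting treated reads with several matches is not stated in the sources used, so values of the copied genes are uncertain as measures of mitochondrial RNA, and the part of read assignment in them was not tested.

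Skin labelled KO 10 d had lower levels of most mitochondrial mRNAs than Cre negative controls. Control replicate 3 was taken at 10 days and the other controls at 12 days, so time was matched only in part. Of the 11 protein genes that passed the low-value limit (a mean of 10 steps over the set), 8 were lower by limma with Benjamini-Hochberg adjustment over all genes tested, where 11.9% of all genes tested were called lower. None was called higher (13.3% of all genes tested). These were 6 of 6 tested complex I genes, the complex III gene and 1 of 3 complex IV genes, with 0 of 1 for complex V; mt-Nd4l and mt-Atp8 were below the limit. The median log2 difference over the 11 genes was -0.86, against -0.02 over all genes tested. In this bulk tissue, fewer cells of a type and less RNA per cell cannot be told apart.

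Among the complex I genes, mt-Nd4, a membrane subunit of the proton-pumping arm, had 6603, 6339 and 7141 steps in KO 10 d skin, against 15505, 13919 and 11993 in controls. Every KO 10 d library lay below every control, and the log2 difference was -1.04 (SE 0.15, limma adjusted p = 0.0033). mt-Nd2, another membrane subunit, had 3895, 4358 and 4130 steps in KO 10 d skin, against 11365, 7835 and 7170 in controls, again without overlap (-1.06, SE 0.20, limma adjusted p = 0.0074). mt-Nd5, the subunit at the far end of the membrane arm, had 7253, 8301 and 8926 steps against 19051, 13579 and 12524 in controls, and differed by -0.86 (SE 0.20, limma adjusted p = 0.0124). For mt-Nd1, the membrane subunit next to the quinone site, the KO 10 d libraries held 14963, 17064 and 14508 steps, against 30155, 24265 and 24627 in controls (-0.76, SE 0.18, limma adjusted p = 0.0158). Control replicate 1 was the highest of the 12 libraries of the set for each of these 4 genes, and the groups did not overlap in any of them. The minus-strand mt-Nd6 had 352, 525 and 404 steps in KO 10 d skin, against 2027, 727 and 760 in controls (-1.30, SE 0.38, limma adjusted p = 0.0304), a difference of -0.82 without control replicate 1. mt-Nd3, in the copied stretch, had only 5, 6 and 9 steps in KO 10 d skin, against 12, 15 and 21 in controls (-1.15, SE 0.35, limma adjusted p = 0.0360).

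mt-Cytb, the sole mitochondrially encoded subunit of complex III, had 15439, 17342 and 15918 steps in KO 10 d skin, against 39362, 29038 and 28928 in controls. The 2 groups were far apart relative to the spread within each, and the log2 difference was -0.99 (SE 0.18, limma adjusted p = 0.0066). In complex IV, mt-Co1 had 99611, 88591 and 85820 steps in KO 10 d skin, against 169911, 137862 and 141062 in controls, without overlap (-0.71, SE 0.21, limma adjusted p = 0.0300). The other complex IV genes, both in the copied stretch, overlapped between groups. mt-Co2 had 62, 69 and 53 steps in KO 10 d skin, against 82, 59 and 77 in controls (-0.24, limma adjusted p = 0.446), and mt-Co3 had 93, 68 and 72 steps against 76, 104 and 89 in controls (-0.21, limma adjusted p = 0.521). mt-Atp6, the proton channel subunit of complex V, had 17, 27 and 21 steps in KO 10 d skin, against 36, 31 and 32 in controls. Its groups did not overlap, yet the difference of -0.61 missed the threshold (limma adjusted p = 0.107).

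Split by copying, 7 of 7 protein genes outside the copied stretch were called lower (median -0.99), against 1 of 4 tested genes inside it (median -0.42); the difference between these 2 sets was not tested. Without overlap between the groups stood 9 of the 11 genes, where 21.1% of all genes tested did so downward. The call count rests on single libraries in part: it was 5 without control replicate 1, without KO 10 d replicate 1 or without KO 10 d replicate 2. mt-Nd2, mt-Nd4, mt-Nd5 and mt-Cytb passed the threshold in each of the 6 sets that left out 1 library. mt-Nd1 lost its call without control replicate 1 (-0.66, limma adjusted p = 0.0505), and mt-Nd6 in 4 of the 6 sets (limma adjusted p = 0.0785 without control replicate 1). mt-Nd3 lost its call in 4 of the 6. mt-Co1 passed only without control replicate 3 (limma adjusted p = 0.0432), with values between 0.0526 and 0.0858 in the other 5 sets. With the deposited values in place of steps, 1 gene, mt-Nd4, was still called (-0.76). That scale put the median of all genes at 0.26 and called 2.82% of all genes tested lower. Relative to the median of all genes, the median of the mitochondrial protein genes was -0.84 on the step scale, -0.84 on the deposited scale and -0.85 with library totals set equal. These scales differ by 1 factor per library, so the near equality follows from how they were made and is no check of the result.

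**Figure D2:**
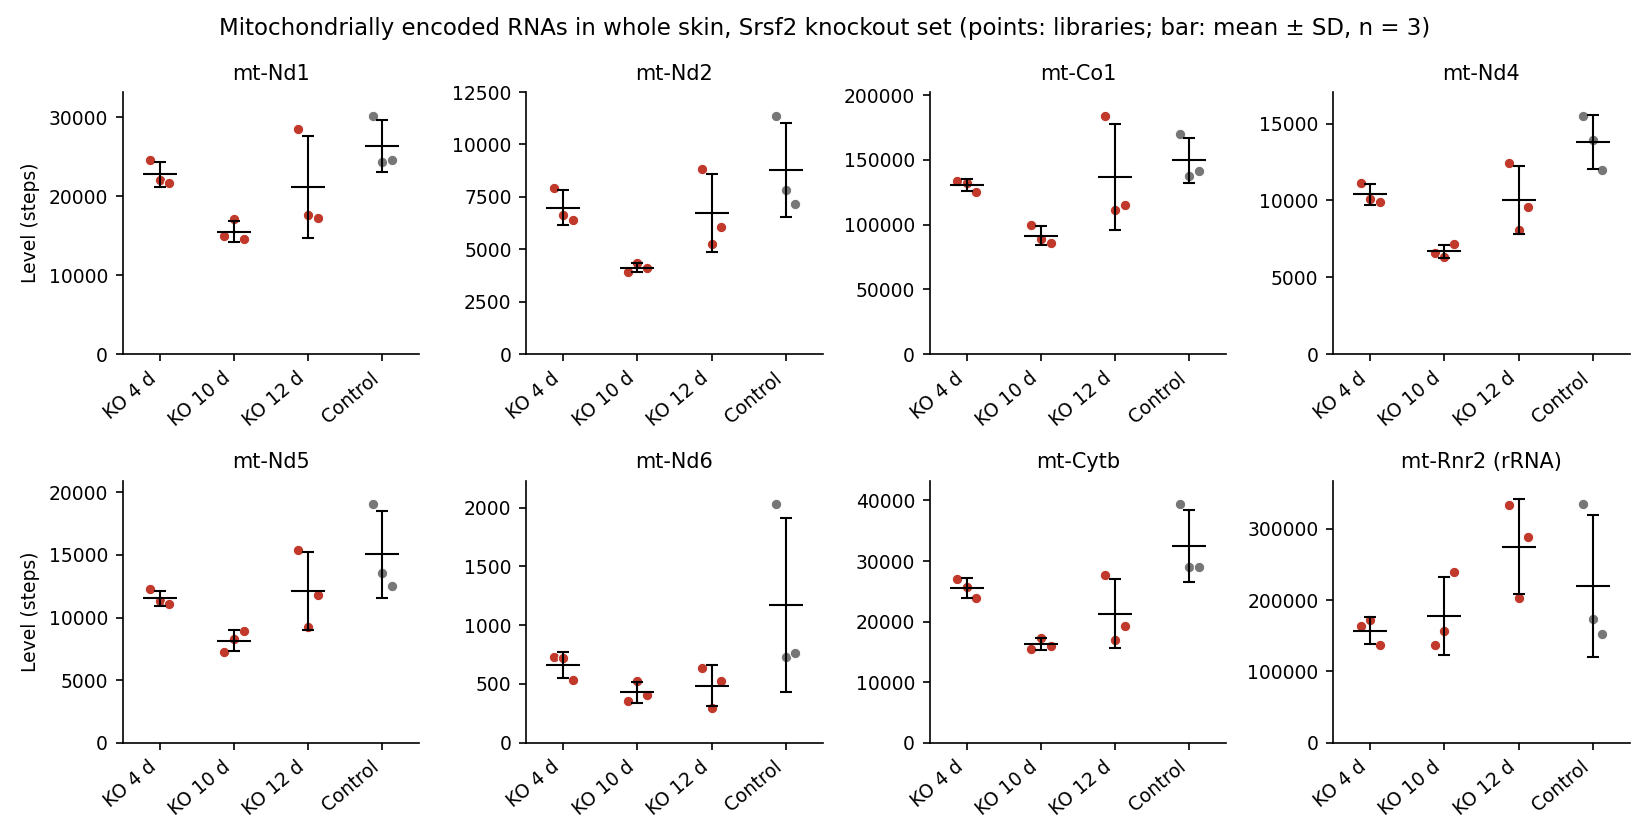
Levels of 7 mitochondrial protein genes and mt-Rnr2 in whole skin of the knockout set, in steps, by library (points) with the mean and SD of 3 libraries (bars). The KO 10 d libraries lie below all controls for the 7 mRNAs, such as 6339 to 7141 against 11993 to 15505 steps for mt-Nd4, while mt-Rnr2 overlaps between the groups.

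**Figure D3:**
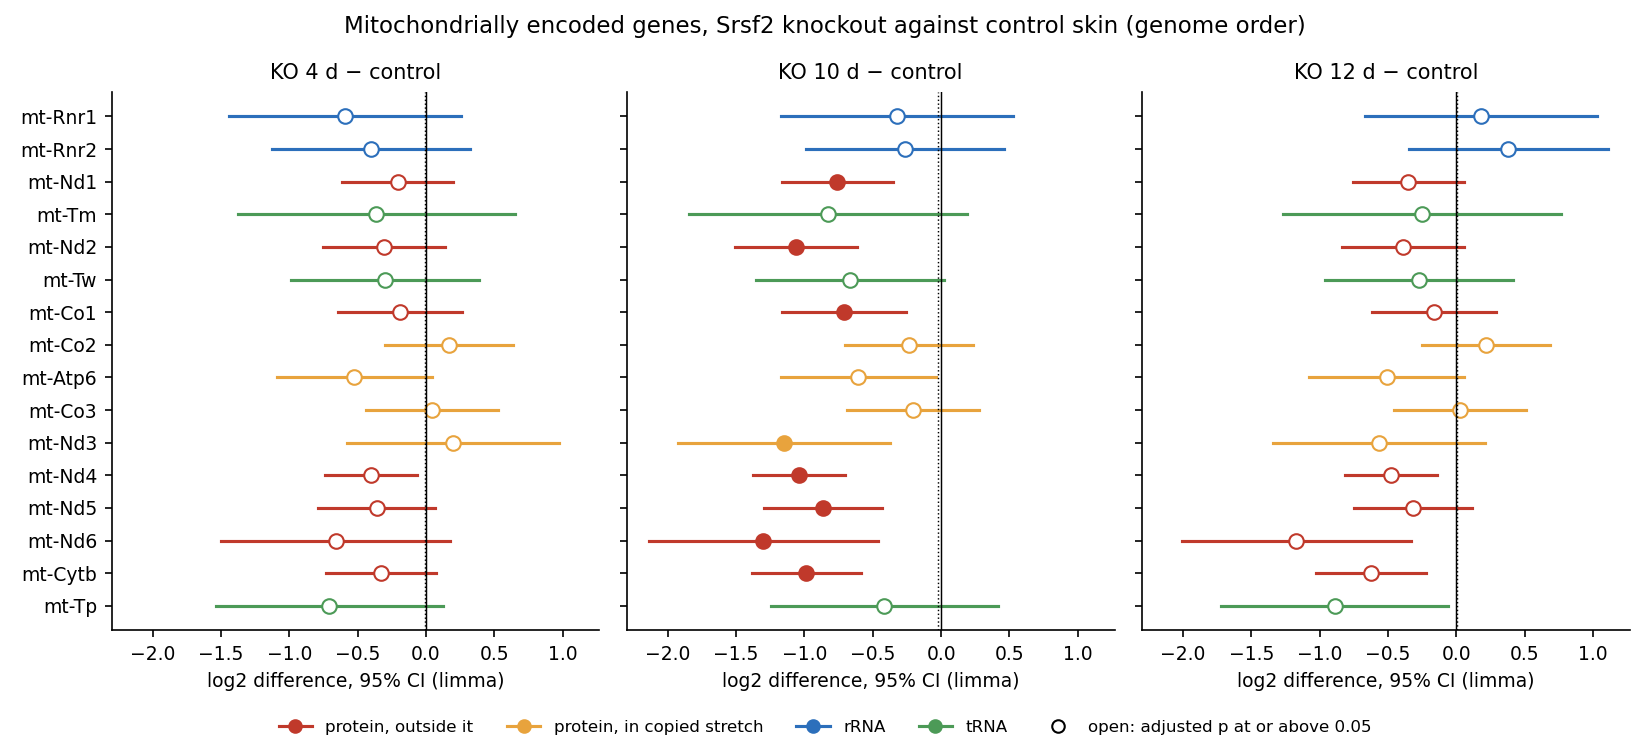
Log2 difference of each tested mitochondrial gene (rows, in genome order) between KO and control skin at 4, 10 and 12 days, with the 95% confidence interval from limma; filled points passed an adjusted p of 0.05 and the dotted line marks the median of all genes. Filled points appear only at 10 days, for 8 protein genes between -0.71 and -1.30, and the same 3 control libraries serve all panels.

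The same drop appeared in the share of each library's summed values that fell on the 13 mitochondrial protein genes, a measure that needs no scaling between libraries. The share was 0.417, 0.394 and 0.365% in KO 10 d skin (0.392 ± 0.026%, SD, n = 3), against 0.953, 0.786 and 0.797% in controls (0.846 ± 0.094%, SD, n = 3). The KO 10 d libraries lay below all others of the set; the log2 difference was -1.11 with an exact two-sided permutation p of 0.1, the smallest that 3 against 3 libraries allow. Hair keratin and keratin-associated protein genes held 15.2 to 20.3% of the summed values in KO 10 d skin, against 0.00232 to 0.981% in all other libraries of the set. With these genes left out of the total, the difference in share was -0.83. Of 80 exact tests on shares and ratios of mitochondrial RNA in this report, the smallest Benjamini-Hochberg adjusted p was 0.32.

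**Figure D4:**
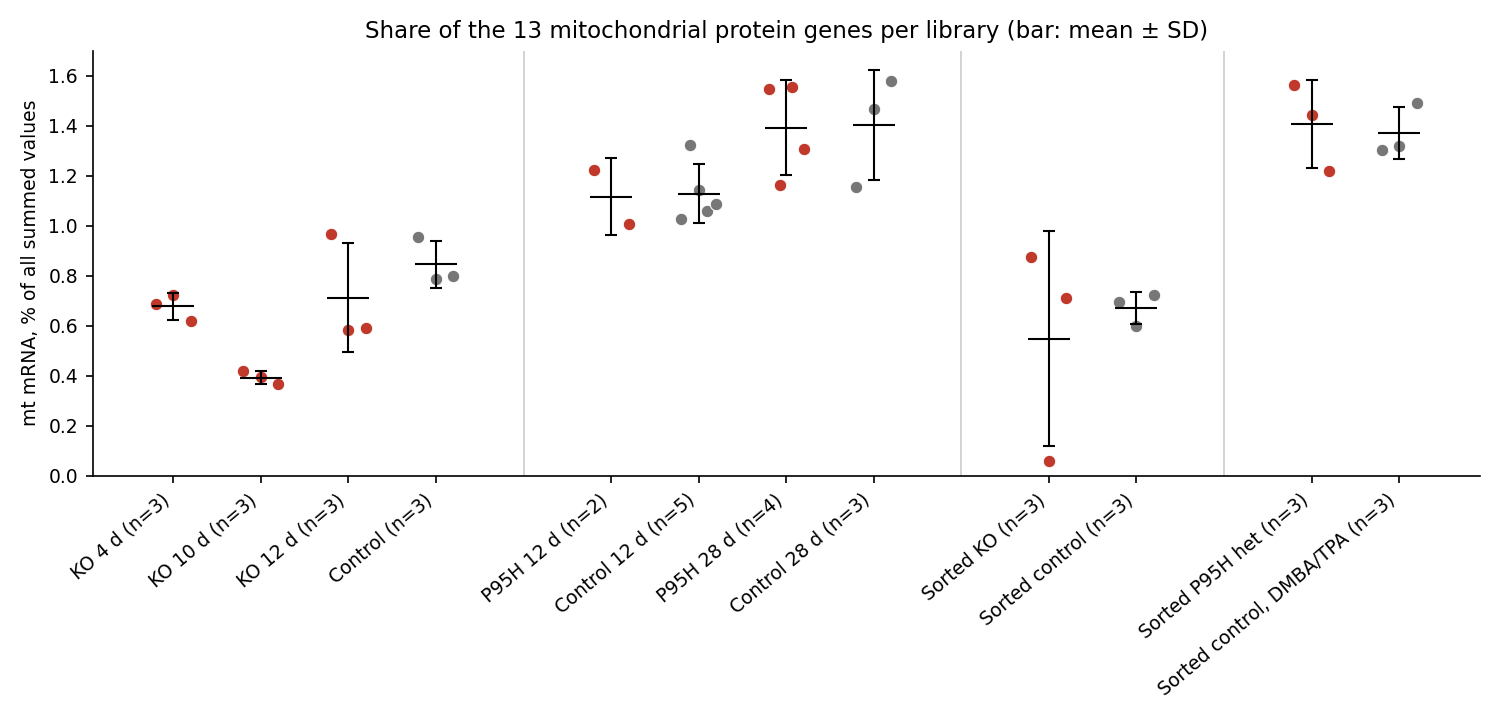
Percentage of each library's summed values on the 13 mitochondrial protein genes, by library (points) with mean and SD (bars), for the 4 tables separated by grey lines. KO 10 d skin lies at 0.365 to 0.417% against 0.786 to 0.953% in its controls, P95H and control skin overlap at both times, and 1 sorted KO library lies at 0.0603%.

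Markers of other cell types moved with the same contrast. Their counts below are limma calls, where 11.9% of all genes tested were called lower and 13.3% higher. Skeletal muscle markers, all detected, held 0.791 to 0.955% of the summed values in KO 10 d skin, against 1.71 to 3.45% in controls, and 14 of the 16 were lower (median -1.28). All 3 muscle isoforms of nuclear complex IV subunits were lower, among them Cox6a2 with a mean of 621 steps in KO 10 d skin and 1747 in controls (-1.47). Endothelial markers were lower for 8 of 9 genes (median -0.82), adipocyte markers for 3 of 11 and smooth muscle markers for 2 of 4. In the opposite direction, hair shaft and inner root sheath markers were higher for 21 of 22 genes (median 6.68) and melanocyte markers for 6 of 6 (median 3.71). The part of these cell types in the mitochondrial mRNA levels was not tested.

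Nuclear genes for the same respiratory complexes did not move as a block in KO 10 d skin. limma called 0 of 36 nuclear complex I genes (4 at an unadjusted p under 0.05, median -0.01), 0 of 9 for complex III (1 unadjusted) and 0 of 15 for complex V (1 unadjusted). Complex IV had 1 of 11 called, Cox6a1, which was higher (mean 2885 steps in KO 10 d skin, against 1845 in controls, 0.67, limma adjusted p = 0.026). At an unadjusted p under 0.05 stood 5 of 11 complex IV genes (45.5%), all higher. Over all genes tested, 20.0% were higher and 19.1% lower at that unadjusted p. Complex II, encoded in the nucleus alone, had 2 of 4 genes lower: its flavoprotein subunit Sdha (mean 3969 steps in KO 10 d skin, 5140 in controls, -0.37) and its membrane anchor Sdhc (-0.39).

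Genes for the expression of mitochondrial DNA were also split. Against 13.3% of all genes called higher and 11.9% lower, mitochondrial ribosomal protein genes had 14 of 77 higher (18.2%) and none lower (list median 0.19), with Mrps17 at 0.41, Mrpl57 at 0.67, Mrpl41 at 0.51 and Mrps27 at 0.51. Of 37 RNA processing and turnover genes, 7 were higher (18.9%) and 1 lower, the 4 with the smallest p being Pde12 (0.69, limma adjusted p = 0.0084), which trims poly(A) tails, Supv3l1 (0.42), the helicase of the RNA degradosome, Elac2 (0.55), which cuts tRNA ends, and Trit1 (0.32), a tRNA-modifying enzyme. Of 20 transcription and replication genes, 1 was called, the topoisomerase Top1mt (-0.50, limma adjusted p = 0.0095). limma called 0 of 16 mitochondrial aminoacyl-tRNA synthetase genes, with 4 at an unadjusted p under 0.05. The polymerase Polrmt differed by 0.27 (limma adjusted p = 0.201), the packaging and initiation factor Tfam by -0.03 (0.915), the mRNA-stabilising partners Lrpprc by 0.07 (0.746) and Slirp by 0.50 (0.069), and the coactivator Ppargc1a by -0.62 (0.065); none of these 5 passed the threshold. Among 8 regulators of mitochondrial biogenesis, Pprc1 was higher (0.62) while Esrrg (-1.48) and Perm1 (-1.47), both known for high expression in muscle, were lower. Of 26 genes for the tricarboxylic acid cycle, import and the inner membrane, shares near those of all genes were called in each direction (15.4%): 4 were higher, including the ADP/ATP carrier Slc25a5 (1.1) and the import pore Tomm40 (0.81), and 4 were lower, including Idh3g (-0.31).

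At 4 days no mitochondrial gene passed the threshold. No control was taken at 4 days, so knockout and time cannot be told apart in this comparison. limma called 0 of 11 protein genes and 0 of 5 rRNA and tRNA genes (0 of these also unadjusted), where 4.12% of all genes tested were called lower and 7.21% higher. At an unadjusted p under 0.05 stood 1 protein gene, mt-Nd4, with 11161, 10117 and 9890 steps in KO 4 d skin, against the control values above (-0.40, adjusted p = 0.115). The KO 4 d libraries nonetheless lay below all controls for 5 protein genes, mt-Nd4, mt-Nd5, mt-Cytb, mt-Co1 and mt-Atp6, where 13.4% of all genes tested did so. mt-Cytb, for example, had 27101, 25774 and 23880 steps. The median log2 difference was -0.31, against -0.01 over all genes. The mitochondrial mRNA share was 0.687, 0.724 and 0.620% in KO 4 d skin, below the 3 controls (log2 difference -0.32, exact permutation p = 0.1, the smallest possible). Beside it, fibroblast markers were higher for 7 of 7 genes (median 1.29) and leukocyte markers for 10 of 10 (median 1.58), and 1 of 16 muscle markers was lower (median -0.50); their part in the shares was not tested.

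At 12 days too, limma called 0 of 11 protein genes, where 0.458% of all genes tested were called lower and 0.823% higher. At an unadjusted p under 0.05 stood 3: mt-Cytb (-0.62, adjusted p = 0.104), mt-Nd4 (-0.48, adjusted p = 0.129) and mt-Nd6 (-1.17, adjusted p = 0.133). mt-Cytb had 27698, 16954 and 19269 steps in KO 12 d skin, and mt-Nd6 had 636, 296 and 520, all below the 3 controls. These were the only 2 of the 11 without overlap, where 10.8% of all genes tested lay wholly lower. KO 12 d replicate 1 was the highest of its group for all 7 genes outside the copied stretch. mt-Co1 had 184054 steps there, above every control, and 111623 and 115183 in the other KO 12 d libraries. The mRNA share was accordingly 0.965, 0.583 and 0.589%, overlapping the controls (log2 difference -0.28, exact permutation p = 0.4). The skeletal muscle share in these 3 libraries was 2.34 to 2.98%, within the range of the controls. The comparisons at 4, 10 and 12 days share the same 3 controls.

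Set against each other, the KO times differed directly. Skin labelled KO 10 d was lower than KO 4 d skin for 5 of 11 protein genes, where 21.4% of all genes tested were called lower. The 5 were mt-Nd4 (-0.63, limma adjusted p = 0.0071), mt-Nd3 (-1.35), mt-Nd2 (-0.76), mt-Cytb (-0.66) and mt-Nd1 (-0.55, limma adjusted p = 0.0332). Without overlap lay 9 of 11, where 27.8% of all genes tested lay wholly lower, and the median was -0.55 against -0.03 over all genes. mt-Nd1 lost its call in 5 of the 6 sets that left out 1 library, and mt-Nd2 and mt-Cytb in 1 of them, the set without KO 4 d replicate 1, where the count was 2. The count with the deposited values was 1, mt-Nd3, where 7.55% of all genes tested were called lower. The mRNA share differed by -0.79, without overlap.

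KO 12 d skin was in turn higher than KO 10 d skin for 3 of 11 protein genes, where 19.2% of all genes tested were called higher. These were mt-Nd4 (12436, 8071 and 9595 steps in KO 12 d skin, 0.56, limma adjusted p = 0.0149), mt-Nd2 (8829, 5269 and 6082 steps, 0.67, limma adjusted p = 0.0243) and mt-Nd5 (15426, 9205 and 11817 steps, 0.55, limma adjusted p = 0.0462). The count was 1 without KO 12 d replicate 1, KO 10 d replicate 1 or KO 10 d replicate 3, 5 without KO 12 d replicate 2, and 0 with the deposited values. mt-Nd5 lost its call in 5 of the 6 sets that left out 1 library and mt-Nd2 in 3 of them, while mt-Nd4 kept it in all 6. The median over the 11 genes was 0.45, against 0.05 over all genes, and 5 genes did not overlap, where 26% of all genes tested lay wholly higher. The mRNA share differed by 0.82, without overlap. In the same contrast 14 of 16 skeletal muscle markers and 3 of 3 muscle isoforms of complex IV were higher, 22 of 22 hair shaft markers were lower, and Polrmt was lower (-0.47, limma adjusted p = 0.0285). Of the mitochondrial ribosomal protein genes 11 of 77 were lower (14.3%) and of the RNA processing genes 8 of 37 (21.6%), shares near the 18.3% of all genes tested.

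The rRNAs of the mitochondrial ribosome did not separate KO 10 d skin from controls. Libraries were made after rRNA removal, whose part in the mitochondrial rRNA values and ratios of this report was not tested. mt-Rnr1, the small-subunit rRNA, had 14189, 18689 and 33637 steps in KO 10 d skin, against 46730, 20239 and 18466 in controls (-0.32, limma adjusted p = 0.571). mt-Rnr2, the large-subunit rRNA, had 136270, 156951 and 238944 steps against 334339, 173097 and 152242 in controls (-0.26, limma adjusted p = 0.593). Single libraries spread further than the group means in both, with KO 10 d replicate 3 and control replicate 1 the high ones. Their summed share was 0.545% in KO 10 d skin and 0.843% in controls on average (exact permutation p = 0.3). The ratio of rRNA to mRNA averaged 1.41 in KO 10 d skin and 0.975 in controls, with overlap (exact permutation p = 0.3); it averaged 0.836 in KO 4 d skin, where no library reached the KO 10 d values.

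Among the tRNAs only mt-Tm, mt-Tw and mt-Tp were tested in knockout-set skin, and 7 of the 22 stood at the lowest value in all its libraries. limma called 0 of the 5 rRNA and tRNA genes at 10 days, 0 also at an unadjusted p under 0.05, and their median was -0.41. mt-Tw had 17, 23 and 29 steps in KO 10 d skin, just below the 44, 36 and 30 in controls (-0.66, limma adjusted p = 0.141). mt-Tm had 7, 3 and 16 steps against 17, 12 and 12 in controls, and mt-Tp had 17, 9 and 15 against 24, 12 and 20, both overlapping. At 12 days mt-Tp reached an unadjusted p under 0.05 (8, 6 and 16 steps in KO 12 d skin, -0.89, adjusted p = 0.222).

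Parts of the make-up of the mitochondrial mRNA also lay apart between the groups, each with an exact permutation p of 0.1, the smallest possible. mt-Co1 held 64% of the mitochondrial mRNA values in KO 10 d skin and 65.4% in KO 12 d skin on average, against 60.6% in controls, without overlap at either time. At 10 days the margin was slight, with 62.08% in the lowest KO 10 d library and 62.06% in the highest control. The genes of the copied stretch together held 0.106% in KO 4 d, 0.120% in KO 10 d and 0.106% in KO 12 d skin, against 0.0895% in controls, and each of these groups lay above all controls. mt-Nd6 held 0.231% of the values of the 7 genes outside the stretch in KO 12 d skin, against 0.453% in controls, also without overlap. Control replicate 1 raised that mean, at 0.705% against 0.320 and 0.335% in the other controls. mt-Rnr1 stood at 0.10 to 0.14 of mt-Rnr2 in this set, against 1.39 to 6.37 in the libraries of the other 3 tables; the labels name 1 rRNA removal kit for knockout mice and another for P95H mice, with no separate word on the sorted cells, and the part of the kit in this ratio was not tested.

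In P95H skin the level of mitochondrial mRNA overlapped with that of Cre negative skin at both times. The mRNA share was 1.22 and 1.01% in P95H 12 d skin (1.12 ± 0.153%, SD, n = 2), against 1.03, 1.32, 1.14, 1.06 and 1.09% in 12 d controls (1.13 ± 0.118%, SD, n = 5; exact permutation p = 0.905). It was 1.55, 1.16, 1.56 and 1.31% in P95H 28 d skin (1.39 ± 0.191%, SD, n = 4), against 1.16, 1.47 and 1.58% in 28 d controls (1.40 ± 0.220%, SD, n = 3; exact permutation p = 0.914). At 12 days limma called 0 of 12 tested protein genes and 0 at an unadjusted p under 0.05, where 6.93% of all genes tested were called in either direction; the median was -0.17, against -0.002 over all genes. The 28 d comparison likewise gave 0 of 12 protein genes and 0 unadjusted, where 12.2% of all genes tested were called, with a median of 0.14 against -0.01. The interaction of genotype and time called 0 of 12 protein genes and 0 unadjusted (median 0.26), where 0.0109% of all genes tested were called.

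Values of single genes show the same overlap. mt-Co1 had 132368 and 116329 steps in P95H 12 d skin, against 107553, 123512, 131274, 115151 and 119332 in 12 d controls. At 28 days it had 136723, 125316, 166976 and 151329 steps in P95H skin, against 131780, 163178 and 167415 in controls. mt-Cytb had 43705, 23996, 29197 and 25342 steps in P95H 28 d skin, against 20800, 27633 and 31681 in controls. P95H 28 d replicate 1 was the high library here, and it was high in mt-Nd4 too (23779 steps, against 8822 to 12168 in the other P95H 28 d libraries and 7088 to 12527 in the controls). Skeletal muscle markers held 1.29 to 1.39% of the values in P95H 12 d skin, against 1.72 to 2.10% in its controls. Of these markers 3 of 16 were called lower, where 2.97% of all genes tested were.

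The rRNAs were higher in P95H 28 d skin without passing the adjusted threshold. These libraries were made after rRNA removal, and its part in the rRNA values was not tested. mt-Rnr1 had 9049, 5302, 4842 and 3347 steps in P95H 28 d skin, against 2715, 2727 and 3163 in controls. All 4 P95H libraries lay above the 3 controls, as did 14.5% of all genes tested, and the log2 difference was 0.88 (SE 0.38, limma adjusted p = 0.140, with an unadjusted p under 0.05). mt-Rnr2 had 3688, 1232, 1954 and 1311 steps in P95H 28 d skin, against 1052, 1193 and 1022, again without overlap (0.77, limma adjusted p = 0.368). Their share was 0.0456 ± 0.0194% in P95H 28 d skin (SD, n = 4) and 0.0245 ± 0.0012% in controls (SD, n = 3), with an exact permutation p of 0.0571. The genotype effect on mt-Rnr1 at 28 days minus that at 12 days was 1.32 (limma adjusted p = 0.570).

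Between the Cre negative skins, limma called 0 of 12 protein genes at 28 days against 12 days, where 0.00546% of all genes tested were called. At an unadjusted p under 0.05 were mt-Co3 (0.54, adjusted p = 0.239), mt-Co1 (0.36, adjusted p = 0.294), mt-Tw (0.83, adjusted p = 0.242) and mt-Rnr1 (-1.07, adjusted p = 0.294). mt-Co1 did not overlap between these controls, where 5.8% of all genes tested lay wholly higher. The ratio of rRNA to mRNA averaged 0.0177 in 28 d controls and 0.0502 in 12 d controls without overlap (exact permutation p = 0.0357, the only one of the 80 exact tests below 0.05 before adjustment). On the deposited scale the signs of the mt-Co1 and mt-Co3 differences turned (-0.47 and -0.29), with the median of all genes at -0.82.

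Nuclear respiratory genes in P95H skin gave calls where the mitochondrial ones gave none; the difference between the 2 groups of genes was not tested. At 12 days, where 3.96% of all genes tested were called higher, 4 of 11 nuclear complex IV genes were (list median 0.28), Cox8a (0.68, limma adjusted p = 0.0031), Cox5b (0.34), Cox6b1 (0.28) and Ndufa4 (0.28). Complex I gave 1 of 36 (Ndufb6, 0.35), near that share, and complex V 1 of 15 (Atp5o, 0.31). At 28 days 4 of 11 complex IV genes were higher (list median 0.35), Cox8a (0.62, limma adjusted p = 0.0033), Ndufa4 (0.35), Cox6a1 (0.74) and Cox6b1 (0.31). With them, 3 of 9 complex III genes were higher (Uqcr10, 0.41; Uqcrq, 0.51; Uqcr11, 0.62) and 4 of 15 for complex V (median 0.30). The mitochondrial ribosome had 6 of 77 higher (7.79%), near the 6.7% of all genes tested. Among the 8 biogenesis regulators, Esrra (0.61), Ppargc1b (0.44) and Pprc1 (0.46) were higher. Pde12 was higher at both times (0.45 and 0.58), and the termination factor family gene Mterf2 was lower at 28 days (-0.59). Cell type markers moved with the same groups. Suprabasal keratinocyte markers held 0.820 to 1.24% of the summed values in P95H 12 d skin against 0.498 to 0.753% in its controls, and 1.14 to 1.47% in P95H 28 d skin against 0.816 to 1.01% in its controls, with 3 and 4 of 9 genes called higher and 1 lower at each time. Brown adipocyte markers held 0.0117 to 0.0133% against 0.00486 to 0.00606% at 12 days, and 0.00951 to 0.0108% against 0.00626 to 0.00886% at 28 days, with 1 of 3 tested genes higher each time. The part of these cell types in the nuclear respiratory genes was not tested.

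In sorted reporter-positive cells at 10 days, where skeletal muscle markers held only 0.00101 to 0.00222% of all values, no mitochondrial gene was called between KO and control. limma, edgeR and DESeq2 each called 0 of 13 protein genes, where limma called 0.0113% of all genes tested lower and 0.0282% higher. At an unadjusted p under 0.05 limma found 1, mt-Nd6 (0.84, adjusted p = 0.255), with 3726, 6335 and 2742 normalised counts in sorted KO cells, against 2780, 1923 and 2090 in controls. mt-Co1 had 303088, 42412 and 261385 normalised counts in sorted KO cells, against 250917, 233586 and 284537 in controls. Replicate 2 was far below all other libraries, while replicates 1 and 3 lay on either side of the highest control. In mt-Cytb replicate 2 was again far the lowest, with 55747, 13913 and 46587 normalised counts in KO cells, against 57553, 50491 and 60058 in controls.

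The median of the 13 genes was -0.57, against -0.04 over all genes, and it was -0.21 without KO replicate 2. Only mt-Nd4 and mt-Co3 lay below all controls in every KO library, where 15.8% of all genes tested did so. mt-Nd4 had 20472, 5986 and 19768 normalised counts in KO cells, against 22748, 21470 and 28255 in controls (-0.84, and -0.25 without replicate 2). mt-Co3 had 1018, 199 and 1042, against 1166, 1213 and 2362 in controls (-1.33, and -0.54 without replicate 2). The mRNA share was 0.874, 0.0603 and 0.712% in KO cells, against 0.695, 0.598 and 0.722% in controls (0.549 ± 0.431% and 0.671 ± 0.065%, SD, n = 3 each; log2 difference -1.0, exact permutation p = 0.9). Without KO replicate 2 the difference was 0.24.

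The rRNAs carried the opposite sign in that library. mt-Rnr1 had 84497, 555294 and 96132 normalised counts in sorted KO cells, against 91510, 83019 and 92470 in controls, and mt-Rnr2 had 37385, 400804 and 43134, against 36861, 43552 and 31240. KO replicate 2 had a ratio of mitochondrial rRNA to mRNA of 10.1 and held 0.608% of its values on the 2 rRNAs, and mt-Nd6 made up 6.73% of its values on the 7 protein genes outside the copied stretch. mt-Tw and mt-Tp stood at 0 there, against 55.4 to 76.4 and 12.0 to 27 normalised counts in controls. In KO replicate 1 they were high, at 274 and 52.6. limma called 0 of the 7 tested rRNA and tRNA genes, 0 also at an unadjusted p under 0.05, and edgeR and DESeq2 called 0 as well. The part of that library's rRNA content in these values was not tested.

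**Figure D5:**
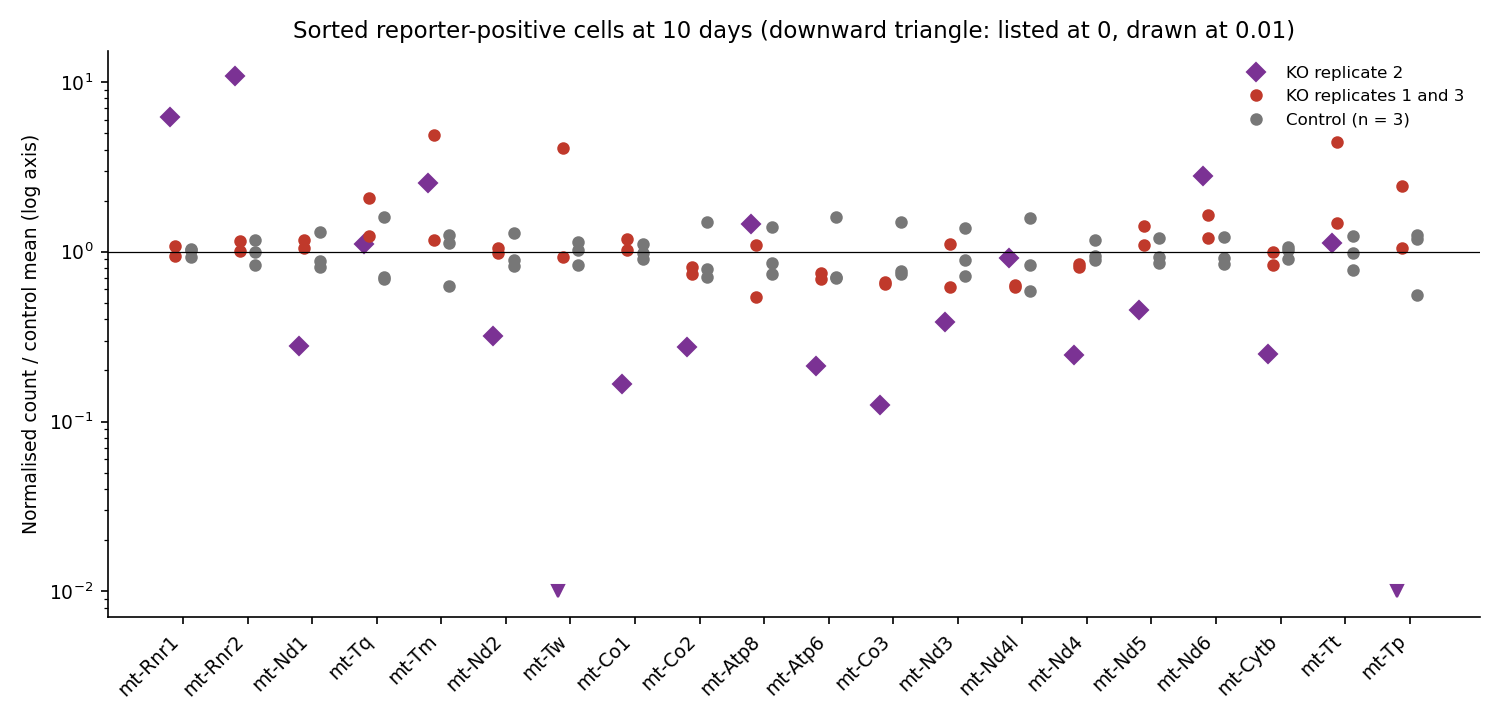
Normalised count of each tested mitochondrial gene in sorted reporter-positive cells, divided by the mean of the 3 sorted controls, on a log axis and in genome order. KO replicate 2 (diamonds) lies low for most mRNAs, such as 42412 normalised counts of mt-Co1, and high for both rRNAs and mt-Nd6, while KO replicates 1 and 3 (red) lie nearer to the controls (grey) for mt-Co1, most other mRNAs and both rRNAs; in KO replicate 1, mt-Tw stands at 274 normalised counts, above all controls.

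In the sorted cells of the DMBA and TPA set, limma, edgeR and DESeq2 called 0 of 13 protein genes between SRSF2-P95H-het and control cells, where 0% of all genes tested were called. All 13 differences were negative on the normalised scale (median -0.21, against -0.01 over all genes); with equal totals or by edgeR the sign of mt-Co1 turned (0.092 and 0.0071, against -0.01). At an unadjusted p under 0.05 were mt-Atp6, with 1570, 1618 and 1359 normalised counts in P95H-het cells, against 1621, 1775 and 2097 in controls (-0.27, limma adjusted p = 0.296), and mt-Nd6, with 1648, 1605 and 1439 against 1649, 1948 and 2640 (-0.39, limma adjusted p = 0.270). In both, all 3 P95H-het libraries lay below the controls, though for mt-Nd6 by only 1 normalised count at the nearest pair, and 10.5% of all genes tested lay wholly lower. The mRNA share was 1.56, 1.44 and 1.22% in P95H-het cells, against 1.30, 1.32 and 1.49% in controls (1.41 ± 0.176% and 1.37 ± 0.104%, SD, n = 3 each; exact permutation p = 0.9). mt-Co1 made up 60.8% of the mitochondrial mRNA values in P95H-het cells and 58.4% in controls, without overlap. mt-Rnr1 had 26977, 22798 and 48565 normalised counts in P95H-het cells, against 22902, 43390 and 18478 in controls, with 1 high library in each group.

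Nuclear mitochondrial genes in the sorted sets gave no limma calls, though between sorted KO and control cells most of their lists lay above the middle of all genes. limma and edgeR each called 0 of 258 genes of the nuclear lists in sorted KO cells, and DESeq2 called 26, all higher, where it called 3.89% of all genes tested higher and 3.19% lower. At an unadjusted p under 0.05 limma found 73 higher (28.3%) and 1 lower, where 7.56% of all genes tested were higher and 9.63% lower. These included 18 of 36 complex I genes and 30 of 77 mitochondrial ribosomal protein genes, all higher. Their median log2 differences were 0.51 for complex I and 0.46 for the mitochondrial ribosome, against -0.04 over all genes, and 0.49 and 0.52 without KO replicate 2. With that library left out limma called 3 of the 258, a count not compared here with the share of all genes called. Between P95H-het and control cells limma, edgeR and DESeq2 each called 0 of 257, with 16 higher and 2 lower at an unadjusted p under 0.05 by limma, where 7.18% of all genes tested were higher and 8.75% lower.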

How the data were processed

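Total RNA of 38 samples was sequenced after rRNA removal with stranded kits, TruSeq Stranded Total RNA Gold for knockout mice and a total RNA kit with Ribo-Zero Plus for P95H mice, each with controls, per the labels' protocols, which do not describe the sorted cells' libraries apart. STAR, featureCounts and DESeq2 are named in the submitters' processing notes, without versions; no source at hand states the genome build, annotation or counting options. The deposited values are normalised counts per gene, treated as a signal scaled by the authors. In the skin tables every value was a whole multiple of 1 step per library (tolerance 0.0001), and steps were analysed; in the sorted tables the deposited normalised counts were analysed, and whole reads were recovered for 100% of values.

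Genes whose mean over a table reached 10 were fitted on the log2(value + 1) scale with limma 3.58.1 (trend, R 4.3.3), with 1 coefficient per group and Benjamini-Hochberg adjustment over all genes tested; the threshold was 0.05. Fold changes on this scale understate those of low genes. Each comparison except the interaction of genotype and time was tested on simulated data. Shares were compared by exact two-sided permutation tests over every regrouping of the libraries, with Benjamini-Hochberg adjustment by scipy 1.17.1. Alternatives were a pseudocount of 5, no filter, a minimum mean of 50, equal library totals, only the compared groups, a replicate block, no trend, deposited values, edgeR 4.0.16 and DESeq2 1.42.0 on the recovered reads, other denominators, and each library left out. Gene positions and sequences came from GENCODE M21 (GRCm38), which held 49326 of the 49585 identifiers when versions were ignored and 43749 with them.

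All mt- genes could be named; of each nuclear list, up to 4 called members with the smallest p per comparison, and always Tfam, Polrmt, Lrpprc, Slirp, Ppargc1a and Srsf2. Nuclear copies were named by sequence match. The genes, lists and tests were chosen with earlier results of these data known. Each sample label carries its own mouse number and a biological replicate number, so libraries were taken as separate animals; pooling is not mentioned. Depth limits precision, and estimated read totals cover counting error only.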

Additional observations from a re-analysis of the deposited data

Results flagged for a closer look

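In 8 of 54 sets of 4 or 5 P95H-set libraries, 1 library lay farther from the rest than a 95% Dixon criterion allows. Chance gives about 1 in 20 for independent sets. These sets share libraries and related genes, so the 8 of 54 cannot be set against that rate. Control 12 d replicate 2 was the high library in 5 of the 8. It had 11203 steps of mt-Nd2 (4794 to 6128 in the other 12 d controls), 13193 of mt-Nd4 (7351 to 8482), 18262 of mt-Nd5 (8100 to 10121), 26474 of mt-Cytb (18451 to 20667) and 240 of mt-Atp6 (110 to 134). Control 12 d replicate 5 had 7010 steps of mt-Rnr2, against 977 to 1950 in the others, and control 12 d replicate 1 had 6 steps of mt-Tq, against 11 to 13. In P95H 28 d replicate 2 the ratio of mt-Rnr1 to mt-Rnr2 was 4.30, against 2.45 to 2.55 in the other P95H 28 d libraries. None of these libraries was removed from a comparison.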

How the results depend on the processing

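Of the counts of called protein genes, 70 of 78 with 1 library left out and 81 of 87 under other settings stayed within 1.5 times the reported count. For rRNA and tRNA genes these were 77 of 78 and 79 of 87. Most of these agreements are 0 against 0, since all reported counts but those of protein genes in the KO comparisons with calls were 0. Of the 6 sets that left out 1 library, 3 stayed within that limit for KO 10 d against control. It was 5 of 6 for KO 10 d against KO 4 d and 2 of 6 for KO 12 d against KO 10 d. Leaving out 1 library gave 5 to 7 called protein genes for KO 10 d against control, 2 to 5 for KO 10 d against KO 4 d and 1 to 5 for KO 12 d against KO 10 d. Called rRNA and tRNA genes were 0 to 1 for KO 10 d against control. With the deposited values the protein counts were 1, 1 and 0 for these comparisons. Of all genes tested, those values called 2.82% lower, 7.55% lower and 7.35% higher in the same order. Equal totals gave 8 for KO 10 d against KO 4 d, where 34.6% of all genes tested were called lower. They gave 7 for KO 12 d against KO 10 d, where 39.6% were called higher. The compared groups alone gave 8 for KO 10 d against KO 4 d, where 20.4% were called lower. Among rRNA and tRNA genes, no filter gave 1 (KO 10 d against control), 2 (KO 10 d against KO 4 d) and 1 (KO 12 d against KO 10 d). Of all genes tested, it called 5.90 to 7.77% in each direction for KO 10 d against control and 11.2 to 12.2% for the other 2. Equal totals gave 1 (mt-Tw, KO 10 d against control, where 35.1% of all genes were called lower) and 1 (mt-Rnr2, KO 12 d against KO 10 d). The deposited values gave 2 for P95H 28 d and 2 for 28 d against 12 d controls.

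The sign of mt-Co1 turned with the deposited values in P95H 12 d (-0.044), P95H 28 d (0.53), their difference (0.57) and 28 d against 12 d controls (-0.47), as did mt-Co3 in the last (-0.29). In the sorted P95H-het cells the sign of mt-Co1 turned with equal totals (0.092) and edgeR (0.0071). Deposited values moved the median of all genes to 0.26, 0.34 and -0.16 in the 3 KO comparisons with calls, and to -0.10, 0.59 and -0.82 in P95H 12 d, P95H 28 d and 28 d against 12 d controls; equal totals moved it to -0.34, -0.26 and 0.35 in those KO comparisons and to -0.39 in sorted KO cells. The log2 difference in mRNA share for P95H 28 d was 0.0040 with mt- genes and rRNA loci out of the total. With 1 library left out it ran over -0.16 to 0.12 for P95H 12 d, -0.14 to 0.086 for P95H 28 d, 0.21 to 0.44 between the controls, -1.69 to 0.24 for sorted KO and -0.045 to 0.14 for sorted P95H-het; mt-Co1 ran over -0.034 to 0.15 in P95H 12 d, -1.28 to 0.14 in sorted KO and -0.11 to 0.10 in sorted P95H-het. The cause was not tested for any of these shifts.

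The labels do not say whether replicate numbers pair the samples. Correlations of same-numbered pairs ran from -0.46 to 0.84, and in no comparison was every pair's correlation over 0.1. These few pairs cannot exclude a pairing. A replicate block gave 8, 6 and 4 called protein genes in the 3 KO comparisons with calls, 0 in the others, and 1 rRNA or tRNA gene for P95H 28 d. In those KO comparisons it called 11.8% of all genes lower, 21.6% lower and 19.0% higher. Low values limit mt-Nd4l, mt-Atp8 and most tRNAs: 7, 4, 5 and 4 of the 22 tRNA genes stood at the lowest value in every library of the KO skin, P95H skin, sorted KO and sorted P95H tables.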
